A study of Mus musculus with 22 samples.

Results

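Mouse embryonic palatal mesenchyme (MEPM) cells were given FGF1 or PDGFAA for 4 hr while phosphoinositide 3-kinase (PI3K) was inhibited with LY294002 (LY), and the ligands are compared here gene by gene under that block. Genes were included when their level in FPKM, a fragment count corrected for the length of the transcript and the depth of the library, was above 1 in FGF + LY or in PDGF + LY. This held for 11589 of the 23286 entries in the table. *Rwdd2a* at 1.0002 FPKM with PDGF + LY was the last gene inside this limit and *Cdh18* at 0.9999 FPKM with FGF + LY the last outside it.

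The cells came from E13.5 palatal shelves of wild-type mice, were used at passage 2 and were held in low serum overnight in every condition. PDGFAA was given at 30 ng/mL. FGF1 was given at 50 ng/mL together with 1 ug/mL heparin. Both arms, of 2 samples each, received LY at 10 uM before the ligand. Values are set beside the ligands alone for 4 hr (3 samples each), the ligands with the MEK inhibitor PD325901 (PD, 1 uM) for 4 hr and the ligands with LY for 1 hr (2 samples each), and no condition shares samples with another. The table holds 1 pooled FPKM per gene and condition, so no value has an error, no test was made and a gene is counted as higher at a ratio of 1.5-fold or more. Heparin came with FGF alone and the ligand doses were not equated, so ligand, heparin and dose cannot be told apart. No condition used here had LY without a ligand, so a ratio does not say which ligand moved a gene.

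FGF and PDGF bind receptor tyrosine kinases that feed the same inner pathways, among them the RAS, MEK and ERK cascade and PI3K with its effector AKT. ERK switches on immediate early genes and, with them, genes for its own inhibitors, such as the dual-specificity phosphatases and the Sprouty proteins. AKT keeps FOXO transcription factors out of the nucleus and, through mTOR, favours ribosome and lipid synthesis, and the palatal shelves depend on both receptor families as they grow and fuse.

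Under LY the ligands left clearly different transcript profiles, and the largest differences were on the FGF side. In all, 1037 entries were higher with FGF + LY (8.95% of those tested) and 1102 were higher with PDGF + LY (9.51%), with a median log2 ratio of -0.005 over all entries. Among the 8907 entries with at least 5 FPKM in the higher condition, 744 were higher with FGF + LY and 479 with PDGF + LY. Of these, 296 were at least 2-fold higher with FGF + LY against 97 with PDGF + LY, and 79 against 14 were at least 4-fold apart. Ligand alone gave smaller counts by the same 2-fold rule, 100 for FGF and 56 for PDGF, and a smaller SD of the log2 ratio over genes, 0.41 against 0.53 with LY. The ligand-alone values pool 3 samples and the LY values 2, and the other pair of 2 samples at 4 hr, with PD, gave 131 for FGF, 179 for PDGF and an SD of 0.46. The part of the number of samples in these counts was not tested.

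How the calls fell depended on the level of the gene. At 1 to 2 FPKM, 30.3% of 948 entries were counted as higher with PDGF + LY and 13.6% as higher with FGF + LY. At 100 FPKM or more the order was turned, with 13 of 729 entries (1.78%) higher with PDGF + LY and 80 entries higher with FGF + LY. The median level in the higher condition was 4.13 FPKM for genes counted on the PDGF side, 12.8 for those on the FGF side and 15.2 for the others, so the PDGF side holds many weakly expressed genes whose ratios are the least certain.

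**Figure D1:**
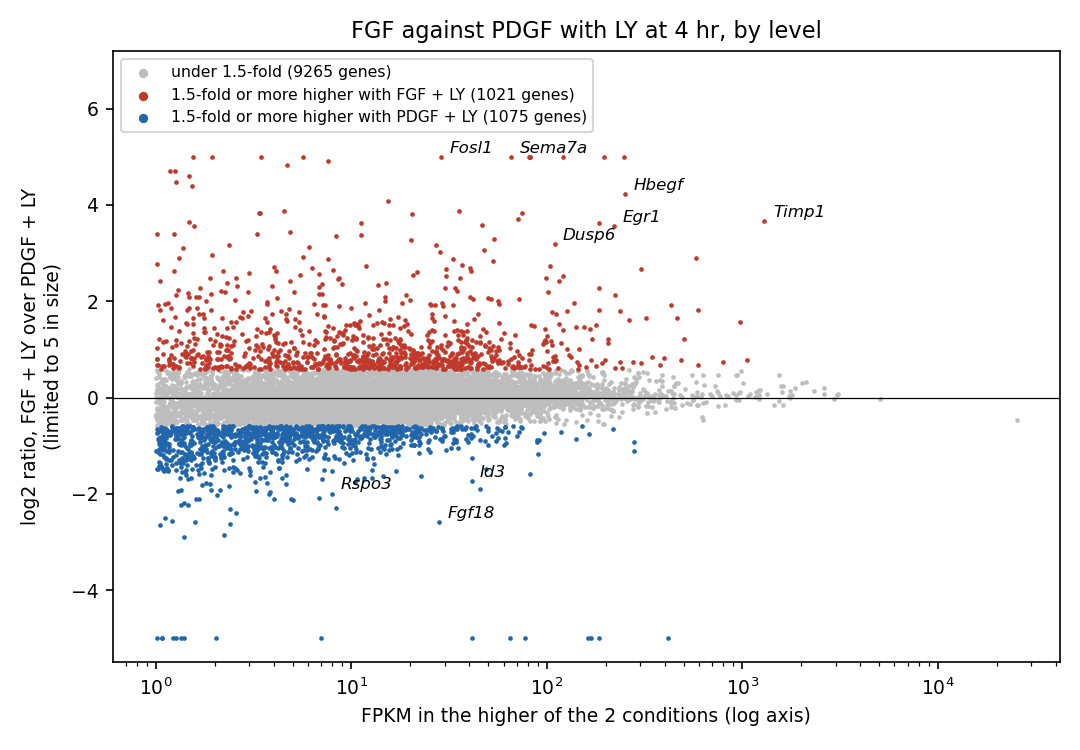
Log2 ratio of FGF + LY over PDGF + LY at 4 hr (vertical axis, limited to 5 in size) against FPKM in the higher condition (horizontal log axis) for 11361 genes, with 1021 genes at least 1.5-fold higher with FGF + LY in red and 1075 with PDGF + LY in blue. Strongly expressed genes far from 0, such as *Timp1* at 1298 FPKM and *Hbegf* at 252 FPKM, lie on the FGF side, and most points at the limits above 5 FPKM are small RNAs.

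The markers of palatal mesenchyme were present in both arms. *Prrx1*, a mesenchymal homeobox gene, was at 257 FPKM with FGF + LY and 264 with PDGF + LY, and *Twist1*, a mesenchymal transcription factor, at 63.7 and 65.7. In all, 11 of 12 mesenchymal markers were above 1 FPKM. The defining markers of epithelium (*Krt5*, *Krt14*), endothelium (*Cdh5*, *Cldn5*) and skeletal muscle (*Myf5*) were listed at 0 in both arms, and *Ptprc* of blood cells was near 0. The summed level was 4.64 FPKM with FGF + LY and 1.34 with PDGF + LY over 9 epithelial markers, 1.82 and 2.71 over 8 endothelial markers 1.59 and 1.97 over the markers of blood cells, 19.9 and 19.8 over muscle markers and 80.9 and 82.8 over those of neurons and glia. *Acta1*, skeletal muscle actin, made up nearly all of the muscle sum at 19.1 and 19.2 FPKM. *Krt18*, a keratin, was at 3.69 FPKM with FGF + LY and 0.953 with PDGF + LY. *Stmn2*, a neuronal marker, was at 64.4 and 69.3, and *Tubb3*, a neuronal tubulin, at 13.7 and 10.6. In bulk RNA, a change in the share of a cell type and a change of RNA per cell cannot be told apart.

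1 feature of the ligand-alone data bears on every value set beside them. In the FGF-alone condition, genes of chromosome X and of chromosome 9 from *Cryab* (starting at 50.7 Mb in GRCm38) to its end were low as a block. Their median log2 ratio of FGF over PDGF alone was -0.57 over 826 entries, of which 398 (48.2%) were counted as higher with PDGF, against 3.28% of 10547 entries elsewhere. On chromosome 9 before that place the median was 0.01. With LY the same stretch had a median of -0.03, with 82 of 834 entries (9.83%) higher with PDGF + LY, close to the 9.44% elsewhere. The step lies in the FGF-alone values, since the X-linked genes had a median log2 ratio of -0.47 between FGF alone and FGF + LY and of 0.01 between PDGF alone and PDGF + LY. The cause was not tested. The counts of genes chosen on ligand alone are therefore also given without this stretch, while list medians and 2-fold counts for ligand alone include it. In addition, *Col1a1* was listed at 0 and *Eno1b* near 0 in both ligand-alone conditions, against 4940 FPKM (*Col1a1*) and 7.78 FPKM (*Eno1b*) with FGF + LY and PDGF + LY respectively.

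**Figure D2:**
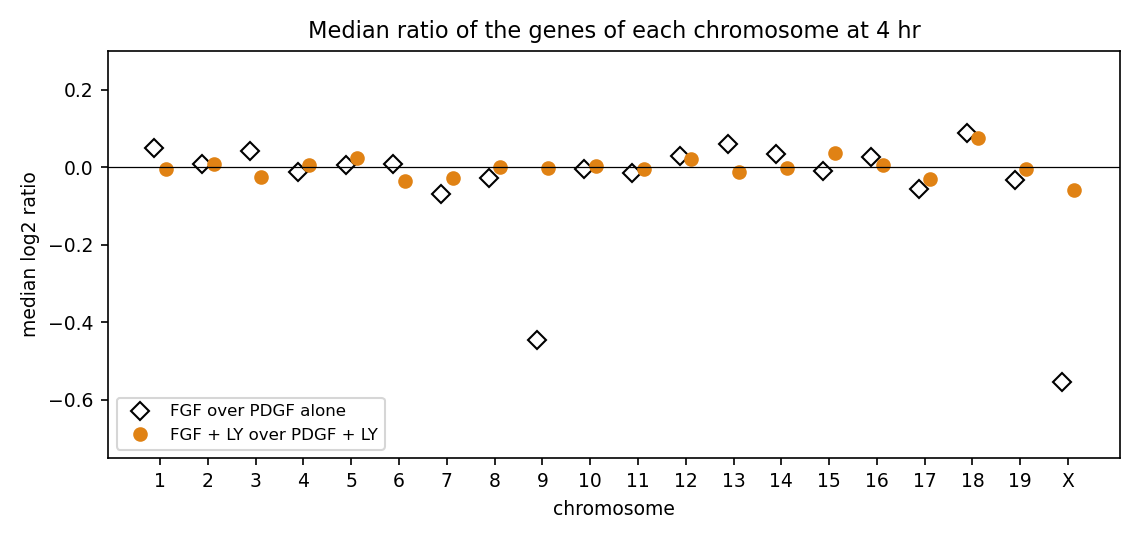
Median log2 ratio of FGF over PDGF at 4 hr (vertical axis) over the genes of each chromosome (horizontal axis) with ligand alone (open diamonds) and with LY (filled circles). With LY every chromosome lies near 0, while chromosomes 9 and X are at -0.45 and -0.55 with ligand alone.

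The genes of the ERK response differed strongly, and all feedback inhibitors that passed the size rule were higher with FGF + LY. Of 14 ERK feedback inhibitors, 9 were higher with FGF + LY and 0 with PDGF + LY (8.95% and 9.51% of all entries), with a median log2 ratio of 1.23 against 0.91 with ligand alone. *Dusp6*, a phosphatase that inactivates ERK, was at 109 FPKM with FGF + LY and 12.1 with PDGF + LY, a 9.07-fold difference. Without the inhibitor it was at 51.8 and 10.9 FPKM, so the level with LY was above that without it in the FGF arm and close to it in the PDGF arm. *Dusp5*, a nuclear ERK phosphatase, was at 35.5 and 2.43 FPKM with LY and at 20.5 and 3.21 alone. *Dusp4*, a relative of both, was at 47.8 and 5.69 FPKM with LY and at 25.5 and 6.20 alone. With PD in place of LY all 3 of these phosphatases were lower with either ligand than with LY, *Dusp6* at 2.16 FPKM with FGF and 0.996 with PDGF. *Errfi1*, an inhibitor of the EGF receptor family, was 13.1-fold higher with FGF + LY, at 71.3 against 5.45 FPKM. *Dusp1* and *Dusp10*, phosphatases of the stress kinases JNK and p38, had smaller differences of 1.73-fold and 2.90-fold, and *Dusp8* of the same list was 1.74-fold higher with PDGF + LY, at 5.83 against 3.34 FPKM.

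The immediate early genes followed the same order. Of 19 EGR, NR4A and other immediate early genes, 13 were higher with FGF + LY and 0 with PDGF + LY, and the median log2 ratio was 0.96 against 0.88 with ligand alone. *Egr1*, an ERK-induced zinc finger factor, was at 222 FPKM with FGF + LY and 18.7 with PDGF + LY, compared with 76.1 and 11.1 alone. With PD it was at 0.406 and 0.746 FPKM. *Egr3* was 12.3-fold higher with FGF + LY and *Arc*, an activity-regulated gene, 16.8-fold, at 15.4 against 0.914 FPKM. At 1 hr with LY, *Arc* was already at 68.7 and 2.96 FPKM and *Egr1* at 395 and 55.3, so both were higher at 1 hr than at 4 hr with either ligand. The PEA3 factors *Etv4* and *Etv5*, targets of FGF signaling in many tissues, passed the size rule with LY at 4 hr but not at 1 hr. *Etv1*, the other factor of that list, was 2.10-fold higher with FGF + LY at 4 hr. At 1 hr it was 1.76-fold higher with PDGF + LY, at 1.68 against 0.956 FPKM. *Etv4* was at 13.8 and 3.90 FPKM at 4 hr and at 4.68 and 4.67 at 1 hr, and *Etv5* at 28.7 and 13.6 and at 17.0 and 16.2, although 30.3% of the 31-base words of *Etv5* also occur in other genes.

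*Srf*, the serum response factor that drives many immediate early genes, passed the size rule with LY but not with ligand alone. The ligands alone gave 29.7 (FGF) and 29.2 FPKM (PDGF), a ratio of 1.02-fold. With LY it was at 37.3 and 15.2 FPKM, 2.46-fold higher with FGF, and at 1 hr with LY it was already at 34.8 and 14.7. The PDGF arm was 1.93-fold lower with LY than alone and the FGF arm 1.26-fold higher. Of the 15 SRF and contractile actin genes, 0 passed the size rule with LY in either direction. Their median log2 ratio was 0.12 with LY and -0.16 alone, and in all 15 the ratio was higher with LY than alone. The direction was that of *Srf*, at a smaller size, but it was not particular to this list. The ratio was also higher with LY than alone in 17 of 18 glucose genes and 6 of 8 reference genes. In G2/M genes it was higher in 7 of 19.

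**Figure D3:**
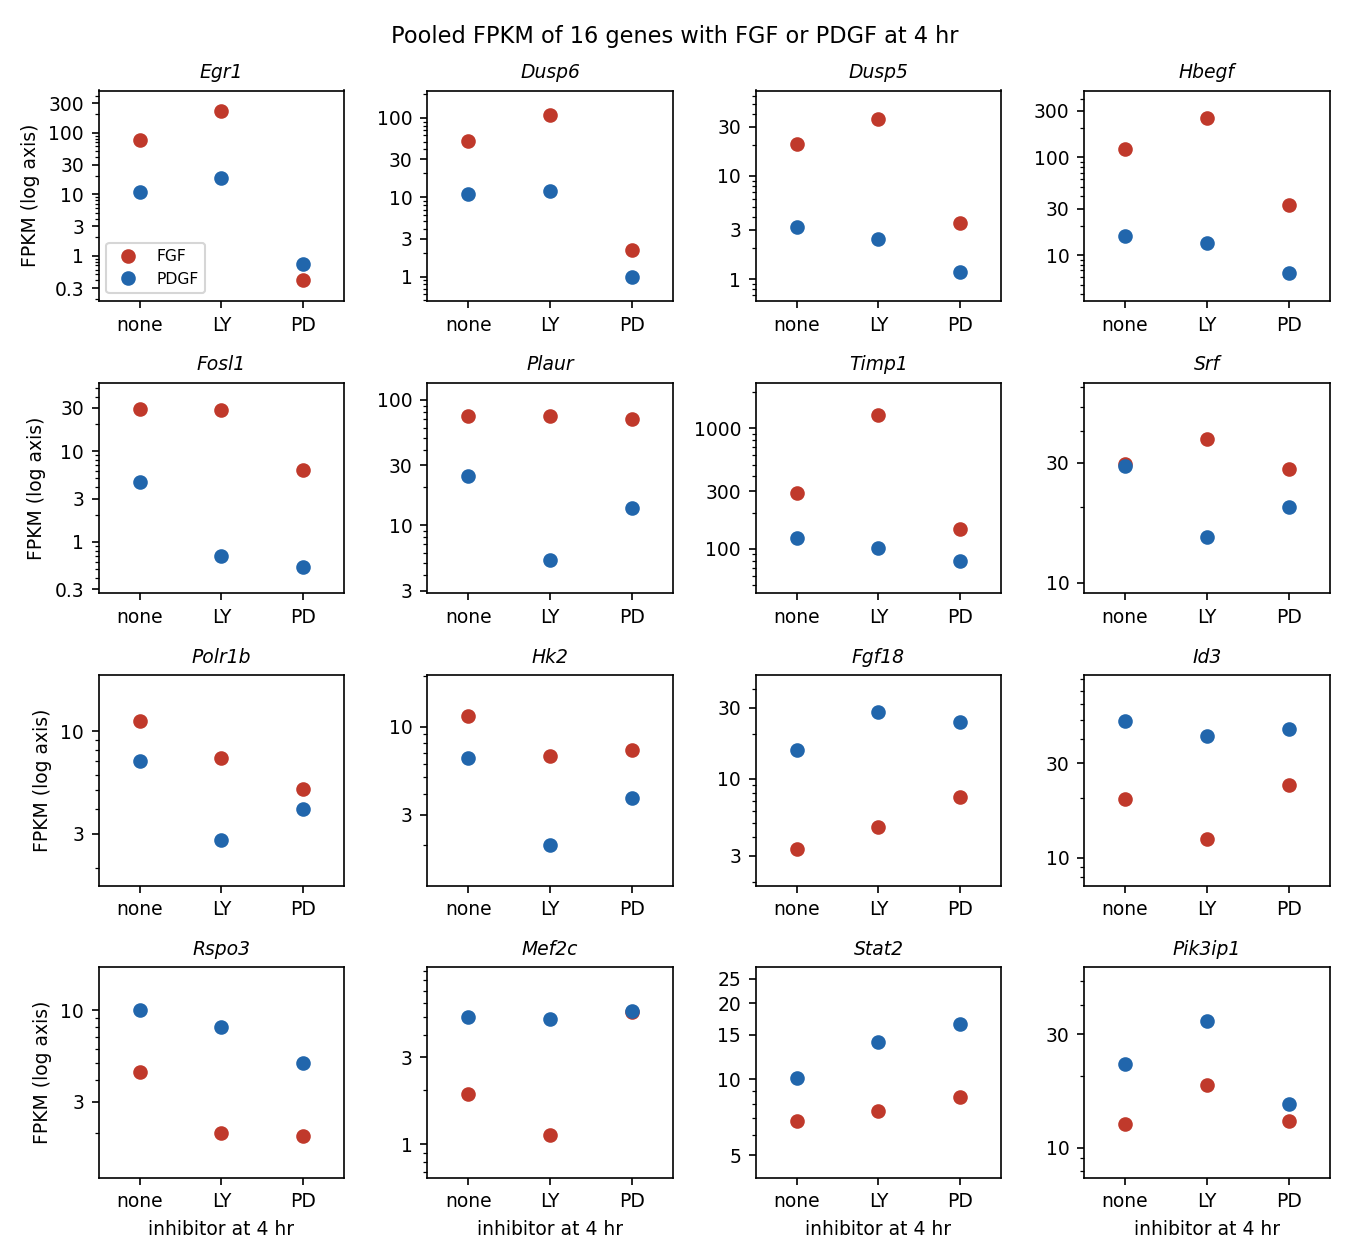
Pooled FPKM (vertical log axis, 1 panel per gene) of 16 genes with FGF (red) or PDGF (blue) at 4 hr, without inhibitor, with LY and with PD (horizontal axis); each point is 1 pooled value without error. *Dusp6* and *Egr1* are highest with FGF + LY and low with PD, *Fosl1* and *Plaur* have their lowest 4 hr PDGF values with an inhibitor, and *Fgf18* and *Id3* are higher with PDGF in all 3 pairs.

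The promoters of 5 genes from both sides of the comparison are shown with short motifs that these pathways are known to use, because their transcripts carry the differences described here. Sequences are those of RefSeq on GRCm38.p6, the 250 bases before the start, 5' to 3' on the strand of the gene, with matches in capitals. The AP-1 element was searched as TGACTCA, and the CArG box bound by SRF and the interferon-stimulated response element in their usual forms, all on both strands and each on its own, so matches of 1 motif may overlap.
Dusp5, chr19:53528895-53529144, plus strand: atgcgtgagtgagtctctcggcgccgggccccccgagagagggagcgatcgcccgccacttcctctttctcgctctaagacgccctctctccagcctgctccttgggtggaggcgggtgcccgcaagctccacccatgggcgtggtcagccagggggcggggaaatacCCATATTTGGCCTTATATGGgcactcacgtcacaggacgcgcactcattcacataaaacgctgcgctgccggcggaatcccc
Srf, chr17:46556163-46556412, minus strand: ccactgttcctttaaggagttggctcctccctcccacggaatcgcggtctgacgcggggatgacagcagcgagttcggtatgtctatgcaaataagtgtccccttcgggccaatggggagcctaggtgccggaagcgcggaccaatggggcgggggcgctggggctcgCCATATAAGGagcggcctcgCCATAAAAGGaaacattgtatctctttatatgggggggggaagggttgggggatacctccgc
Plaur, chr7:24462233-24462482, plus strand: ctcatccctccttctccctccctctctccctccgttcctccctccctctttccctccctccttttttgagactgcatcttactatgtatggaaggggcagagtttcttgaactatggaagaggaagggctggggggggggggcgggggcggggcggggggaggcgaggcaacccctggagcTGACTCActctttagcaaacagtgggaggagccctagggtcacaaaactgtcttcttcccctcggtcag
Srxn1, chr2:152105274-152105523, plus strand: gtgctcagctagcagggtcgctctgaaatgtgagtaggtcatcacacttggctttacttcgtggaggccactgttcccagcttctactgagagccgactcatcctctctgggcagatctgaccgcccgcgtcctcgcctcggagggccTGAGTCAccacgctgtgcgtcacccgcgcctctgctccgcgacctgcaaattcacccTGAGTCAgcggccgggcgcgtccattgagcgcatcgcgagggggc
Stat2, chr10:128270248-128270497, plus strand: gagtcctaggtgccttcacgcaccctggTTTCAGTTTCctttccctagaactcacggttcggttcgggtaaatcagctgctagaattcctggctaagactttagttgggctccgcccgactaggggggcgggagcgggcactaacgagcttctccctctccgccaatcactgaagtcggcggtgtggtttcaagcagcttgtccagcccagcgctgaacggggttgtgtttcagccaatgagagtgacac
The CArG boxes of *Dusp5* begin 82 and 72 bases before the start and those of *Srf* 82 and 62 bases before it. A CArG box was found in 1.47% of all 32851 windows. It was in 1.82% of the 1045 windows of genes at least 1.5-fold higher with FGF + LY, in 1.35% of the 1112 windows of genes so on the PDGF side and in 1.12% of the 9562 windows of the other genes above 1 FPKM. For genes of at least 5 FPKM that were at least 2-fold apart, the shares were 1.05% of 287 windows on the FGF side and 1.15% of 87 on the PDGF side. The AP-1 element of *Plaur* begins 69 bases before the start and those of *Srxn1* 102 and 45 bases before it. It was found in 4.46% of all windows, in 5.65% on the FGF side and 2.79% on the PDGF side of the 1.5-fold rule and in 2.84% of the windows of the other genes. For genes of at least 5 FPKM that were at least 2-fold apart, the shares were 8.36% and 3.45%. *Stat2* holds 1 response element 222 bases before its start, a motif in 2.98% of all windows. By the 1.5-fold rule this motif was in 2.20% of windows on the FGF side, 2.25% on the PDGF side and 2.36% of the others. For genes of at least 5 FPKM that were at least 2-fold apart, the shares were 2.79% and 4.60%. These matches describe letters and show neither binding nor a cause.

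The ligands of the EGF receptor formed the group with the highest median. All 4 that passed 1 FPKM, of 7 listed, were higher with FGF + LY, and their median log2 ratio was 3.75 with LY (2.47 with a pseudocount of 1) and 2.64 alone. *Hbegf*, a heparin-binding EGF-like growth factor, was at 252 FPKM with FGF + LY and 13.5 with PDGF + LY. Alone it was at 121 and 15.7 FPKM, and with PD at 32.6 and 6.56. *Ereg* (epiregulin) was at 20.2 and 2.09 FPKM with LY, and *Areg* (amphiregulin) at 3.46 FPKM with FGF + LY and listed at 0 with PDGF + LY. *Hbegf* thus kept the order of the ligands in all 3 pairs at 4 hr, with its largest gap under LY.

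AP-1 subunits and genes of pericellular proteolysis also had high medians. Of 8 AP-1 genes, 5 were higher with FGF + LY, with a median log2 ratio of 1.34, or 0.73 with a pseudocount of 1. *Fosl1*, which encodes the AP-1 subunit FRA-1, was at 28.7 FPKM with FGF + LY and 0.691 with PDGF + LY, a 41.6-fold difference. Its FGF values were nearly equal without and with LY (29.1 and 28.7 FPKM), and the PDGF value was 4.60 alone, so the LY condition was 6.66-fold lower in the PDGF arm. *Jun* and *Junb* were 3.90-fold and 3.84-fold higher with FGF + LY, and *Jund* was at 47.0 and 48.1 FPKM. In plasminogen activation, 5 of 7 genes passed the size rule toward FGF + LY, and the median log2 ratio was 1.78 against 0.77 alone. *Plaur*, the urokinase receptor, was at 74.6 FPKM with FGF + LY and 74.8 with FGF alone, but at 5.22 with PDGF + LY and 24.8 with PDGF alone. *Plat*, the tissue plasminogen activator, was higher with LY than alone in both arms, at 106 and 30.9 FPKM with LY and 33.1 and 19.4 alone. *Serpinb2*, an inhibitor of plasminogen activators, had the largest ratio of the genes ranked, 168-fold, but only 0.0335 FPKM in the lower condition.

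Single genes of other functions were also far apart. *Sema7a*, a membrane-anchored semaphorin, was at 65.8 FPKM with FGF + LY and 1.85 with PDGF + LY, and at 13.6 and 1.17 alone. *Timp1*, a metalloproteinase inhibitor, was at 1298 and 102 FPKM with LY and at 290 and 123 alone. Both lie in the stretch that was low with FGF alone, so their FGF-alone values share that shift. Within the LY pair *Timp1* was 12.7-fold and *Sema7a* 35.7-fold higher with FGF. Of 9 cytokines and chemokines, 5 were higher with FGF + LY and 1 with PDGF + LY, and the median log2 ratio was 1.92, or 0.51 over 14 genes without a filter. *Il11*, an IL-6 family cytokine, was 6.63-fold higher with FGF + LY, and *Ccl2*, a monocyte chemokine, was at 28.2 and 3.50 FPKM. *Ptgs2*, the inducible cyclooxygenase, was at 184 and 14.9 FPKM with LY, and with PD it still was at 92.3 and 14.7. *Dmp1* and *Spp1*, both of bone matrix, were 30.1-fold and 5.72-fold higher with FGF + LY, while *Runx2*, the osteoblast transcription factor, was at 10.2 and 8.06 FPKM.

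The 6 kinases and exchange factors that the paper names as candidate promoters of ERK signaling were all higher with FGF + LY. All 6 come from the authors' FGF list, which was chosen on the ligand-alone samples. Of the 404 genes on that list, 83.4% were higher with FGF + LY, so the choice of these 6 made this result likely beforehand. *Sgk1*, a kinase related to AKT, was at 98.6 and 17.5 FPKM with LY and at 47.2 and 14.7 alone. *Trib1*, a pseudokinase, was 5.03-fold higher with FGF + LY and *Vav3*, a guanine nucleotide exchange factor, 3.12-fold. *Myc* was at 49.8 and 11.8 FPKM with LY and at 74.9 and 26.6 alone, lower with LY in both arms and further apart.

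A second large group, that of ribosome biogenesis, showed a gap that was wider with LY than alone. Of 24 genes, 17 were higher with FGF + LY and 0 with PDGF + LY, compared with 11 and 0 with ligand alone, 6 and 0 with PD and 0 and 0 with LY at 1 hr. The median log2 ratio was 0.97 with LY at 4 hr, 0.53 alone and 0.05 with LY at 1 hr. *Polr1b*, a subunit of RNA polymerase I, was at 7.29 and 2.81 FPKM with LY and at 11.2 and 7.06 alone. *Rrp12* and *Heatr1*, processing factors of the ribosomal RNA, were 2.53-fold and 2.36-fold higher with FGF + LY. All 3 were lower with LY than alone in both arms, and *Polr1b* was 1.54-fold lower with FGF and 2.52-fold lower with PDGF. The 23 cytosolic ribosomal protein genes had no such gap, with a median log2 ratio of -0.01. Only *Rpl11* passed the size rule, at 1.32 and 0.507 FPKM.

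Genes of glucose uptake and glycolysis had the same form in a few members. Of 17 glucose genes, 5 were higher with FGF + LY and 0 with PDGF + LY. *Hk2*, the inducible hexokinase, was at 6.68 and 2.00 FPKM with LY and at 11.6 and 6.51 alone. *Slc2a1* and *Slc2a3*, glucose transporters, were 2.21-fold and 3.79-fold higher with FGF + LY. *Slc16a1* of the same list was 2.35-fold higher with FGF + LY, at 10.6 against 4.49 FPKM. *Aldoa*, *Pkm* and *Ldha* of glycolysis, picked after their values were seen, were within 1.5-fold. A split of the list into uptake and glycolysis was not tested.

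**Figure D4:**
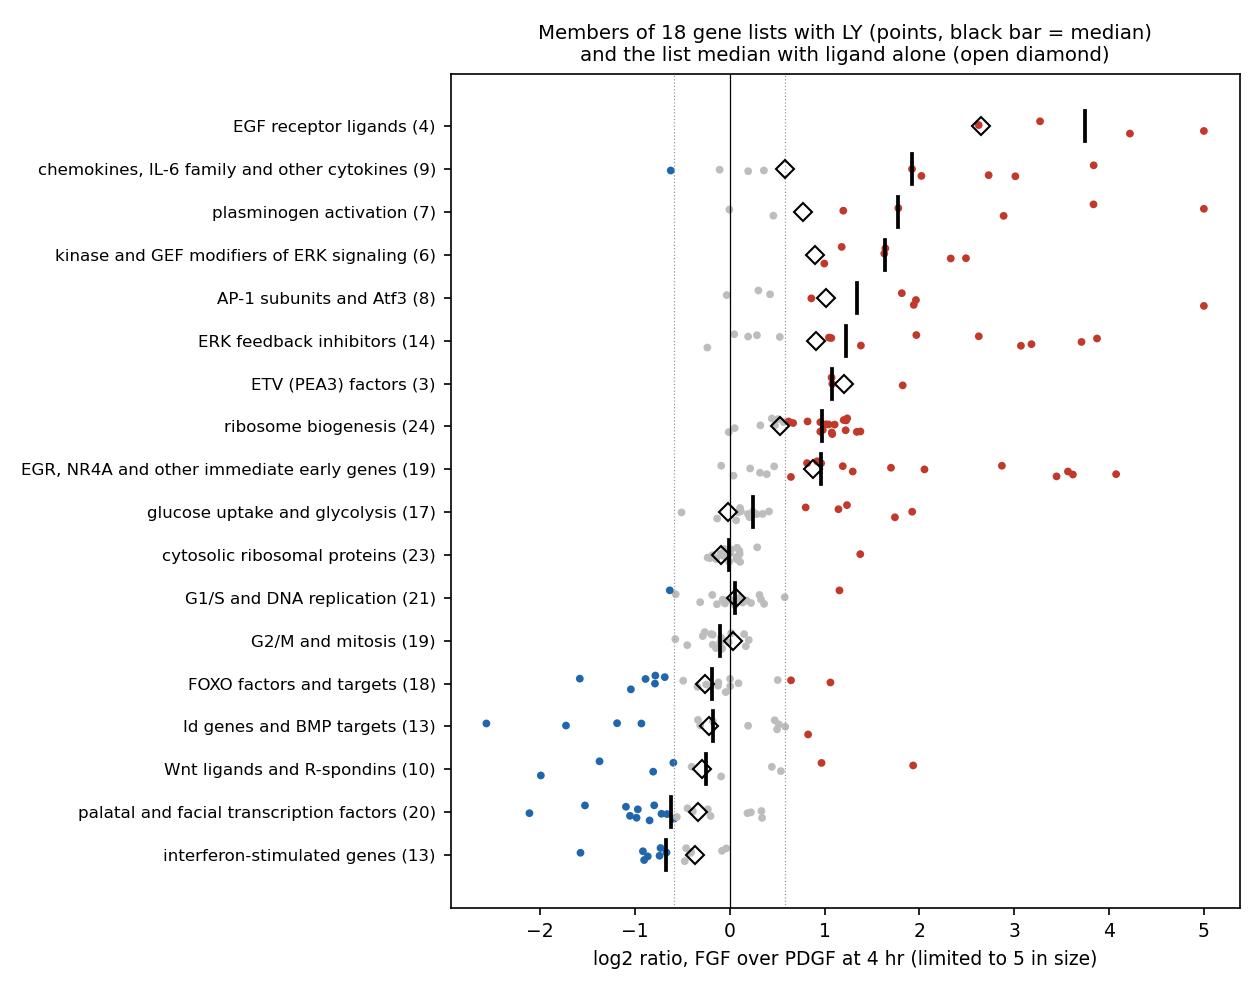
Log2 ratio of FGF over PDGF at 4 hr (horizontal axis, limited to 5 in size) for the members of 18 gene lists with LY (points, red or blue past 1.5-fold, black bar for the list median, number of members in parentheses) and the list median with ligand alone (open diamond). Lists of the ERK response and of ribosome biogenesis lie right of their diamonds, except for the ETV factors, and the palatal factors and interferon-stimulated genes lie left of theirs.

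On the PDGF side the differences were smaller, and developmental regulators stood among them. Among genes of at least 5 FPKM other than small RNAs and entries listed at 0, *Fgf18*, an FGF ligand, had the largest ratio, at 28.1 FPKM with PDGF + LY and 4.70 with FGF + LY, a 5.98-fold difference. It was also higher with PDGF alone (15.7 and 3.37 FPKM) and with PD (24.0 and 7.47). *Rspo3* and *Rspo2*, which strengthen Wnt signaling, were 3.98-fold and 2.59-fold higher with PDGF + LY. *Dact1*, a modulator of Wnt signaling, was at 12.8 and 3.99 FPKM. *Id3* and *Id2*, inhibitors of basic helix-loop-helix factors and targets of BMP signaling, were at 41.2 and 12.4 FPKM and at 9.76 and 4.28 FPKM with PDGF + LY and FGF + LY. *Id1* was at 12.4 and 9.86 FPKM and did not pass the size rule, and the whole list of 13 Id genes and BMP targets had 4 higher with PDGF + LY and 1, *Hey1*, with FGF + LY.

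The transcription factors of the palate and face were the list with most members on the PDGF side. Of 20, 11 were higher with PDGF + LY and 0 with FGF + LY, compared with 5 and 0 with ligand alone, and the median log2 ratio was -0.63 against -0.34. *Mef2c*, a MADS-box factor of neural crest derivatives, was at 4.89 FPKM with PDGF + LY and 1.13 with FGF + LY. With PD it was at 5.43 and 5.33, a ratio that did not pass the size rule. *Dlx5*, a homeobox factor of the jaw, was at 4.23 and 2.04 FPKM, and *Dlx6*, its neighbour, at 1.16 and 0.401. *Osr1*, a factor of palatal mesenchyme, was at 36.2 and 24.1 FPKM, just past the size rule. *Mef2c*, *Dlx5* and *Dlx6* are the members below 5 FPKM, and at 2 to 5 FPKM 19.4% of all entries were counted on the PDGF side. With the 17 members of at least 5 FPKM the median log2 ratio was -0.56. *Lhx8*, *Dlx1* and *Lhx6* were within 1.5-fold, so not all members of the list were on the PDGF side.

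Of the retinoid genes, *Dhrs3*, which reduces retinaldehyde, was at 6.79 FPKM with PDGF + LY and 1.59 with FGF + LY, and *Aldh1a3*, which makes retinoic acid, went the other way at 0.494 and 2.24. *Kcnj2*, an inward rectifier potassium channel, was at 8.38 and 1.71 FPKM with LY and at 4.76 and 2.74 alone. *Rgcc*, a regulator of the cell cycle, was at 10.4 and 3.08 FPKM with LY but at 7.47 and 12.2 with PD, so the order of the ligands was opposite under the MEK inhibitor. *Rasl11b*, a small GTPase of the RAS family, was at 45.3 and 12.2 FPKM with LY and at 53.4 and 52.1 with PD.

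Genes linked to FOXO and to interferon were counted more often on the PDGF side than on the FGF side. Of 18 FOXO factors and targets, 6 were higher with PDGF + LY and 2 with FGF + LY (9.51% and 8.95% of all entries). Most of this list was within 1.5-fold, and its median log2 ratio was -0.19. With ligand alone the counts were 5 and 1 and the median -0.26, so the list was not further apart with LY. *Pik3ip1*, which encodes an inhibitor of PI3K, was at 34.1 FPKM with PDGF + LY and 18.4 with FGF + LY, and at 22.4 and 12.5 alone. *Sesn1*, a stress-induced inhibitor of mTOR signaling, was at 13.7 and 6.64 FPKM, while *Pdk4*, a kinase that restrains pyruvate oxidation, was higher with FGF + LY at 18.2 against 8.73. Of 13 interferon-stimulated genes, 7 were higher with PDGF + LY and 0 with FGF + LY, with a median log2 ratio of -0.67. *Stat2* and *Irf9*, whose proteins act together at interferon-stimulated response elements, were at 14.1 and 7.47 FPKM and at 16.8 and 8.97 FPKM. Binding at the match shown above for *Stat2* was not tested. The list was on the PDGF side with PD as well, with 11 of 13 members (13.2% of all entries) and a median log2 ratio of -1.12. Alone it was less so, with 1 of 9 members (6.58% of all entries) and a median of -0.36.

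Of the receptors of the ligands, *Fgfr1* and *Pdgfrb* passed the size rule toward FGF + LY. *Fgfr1* was at 68.2 FPKM with FGF + LY and 44.7 with PDGF + LY, a 1.53-fold difference, against 1.05-fold alone. *Pdgfrb* was at 112 and 65.3 FPKM, 1.71-fold apart, against 1.12-fold alone. *Pdgfra*, the receptor that PDGFAA binds, was low at 6.51 and 5.27 FPKM. *Fgf7*, a ligand of epithelial FGF receptors, was 1.98-fold higher with FGF + LY and *Fgf10* 2.21-fold higher with PDGF + LY, although the latter was at only 2.46 FPKM.

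Cell cycle and reference genes did not separate the ligands. Of 19 G2/M genes 0 passed the size rule, and of 21 G1/S genes 1 passed in each direction. *Ccna2*, cyclin A2, was at 7.41 and 8.49 FPKM with LY and at 18.7 and 18.8 alone. Of 8 reference genes 0 passed, with a median log2 ratio of 0.12, *Tbp* being at 10.8 and 10.9 FPKM and *Actb* at 1546 and 1124.

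The question of which ligand differences remain when PI3K is blocked was then addressed by choosing genes on the ligand-alone samples and counting them in the LY samples. Of 507 genes higher with FGF alone (4.37% of those tested), 389 (76.7%) were higher with FGF + LY, 6 were higher with PDGF + LY and 62 were within 1.5-fold, the others being below 1 FPKM. Of 763 genes higher with PDGF alone (6.58%), 296 (38.8%) were higher with PDGF + LY and 9 with FGF + LY. The stretch on chromosomes 9 and X that was low with FGF alone holds 398 of the 763 genes. Within it, 63 of 398 (15.8%) were higher with PDGF + LY. Outside it, 233 of 365 (63.8%) were higher with PDGF + LY, compared with 387 of 503 (76.9%) for FGF. With at least 5 FPKM and outside the stretch, the shares were 109 of 148 (73.6%) for PDGF and 286 of 338 (84.6%) for FGF. No test of the difference between these shares could be made.

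The same genes were counted under MEK inhibition and at 1 hr. Of the 507 FGF genes, all but 4 of which lie outside the stretch, 178 (35.1%) were higher with FGF + PD, where 6.2% of all entries were, and 131 (25.8%) with FGF + LY at 1 hr, where 4.14% were. Of the PDGF genes outside the stretch, 200 of 365 (54.8%) were higher with PDGF + PD, where 13.2% of all entries were, and 42 (11.5%) with PDGF + LY at 1 hr, where 2.76% were. The lists of the study, chosen by its authors on the ligand-alone samples, gave similar shares. Of 404 FGF genes, 337 (83.4%) were higher with FGF + LY. Of 325 PDGF genes, 139 (42.8%) were higher with PDGF + LY, and outside the stretch 119 of 176 (67.6%) were. Seen from the LY side, 389 of 1037 FGF genes (37.5%) and 296 of 1102 PDGF genes (26.9%) had already passed the size rule alone, and outside the stretch 233 of 1020 PDGF genes (22.8%).

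The FGF differences were also wider with LY. These medians take genes that reached 5 FPKM in any of the 4 conditions with or without LY and were above 0 in all 4, where the shares above asked for 5 FPKM alone. For 346 such genes higher with FGF alone, outside the stretch, the median log2 ratio was 0.80 alone and 1.15 with LY. Their FGF values were nearly the same (median log2 ratio of LY over alone 0.04), and their PDGF values were lower with LY (-0.27). For 162 of these on the PDGF side the medians were -0.72 alone and -0.86 with LY, with 0.03 in the FGF arm and 0.12 in the PDGF arm. Over all 8612 genes outside the stretch, 273 had a log2 ratio shifted toward FGF by 1.5-fold or more and 132 a ratio shifted toward PDGF. Across these genes the ratios alone and with LY had a Pearson correlation of 0.82, given as a description since genes are not independent replicates.

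**Figure D5:**
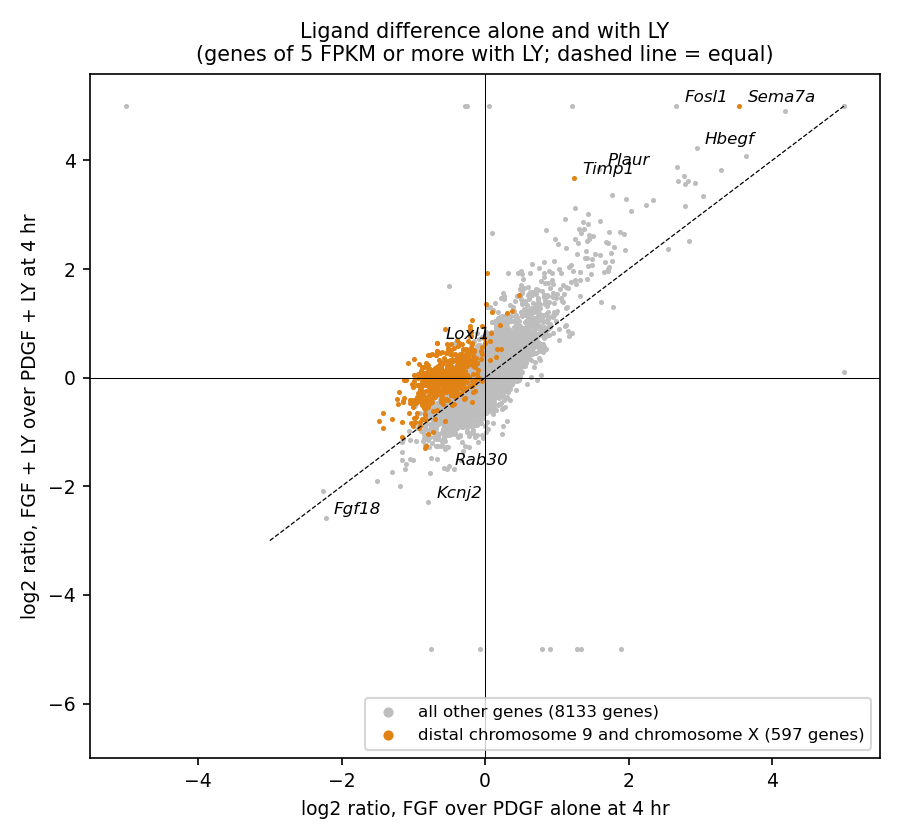
Log2 ratio of FGF over PDGF with LY (vertical axis) against that with ligand alone (horizontal axis) at 4 hr for 8730 genes of at least 5 FPKM with LY, with the 597 genes of distal chromosome 9 and chromosome X in orange and the line of equal ratios dashed. Genes higher with FGF lie mostly above the line, and the orange genes are shifted to the left as a block while centred near 0 on the vertical axis.

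Relative to ligand alone, the 8 largest shifts toward FGF were taken among genes that reached 5 FPKM in 1 of the 4 conditions and were above 0 in all 4. Besides *Fosl1*, *Plaur* and *Timp1* they were *Srxn1*, *Elfn1*, *Inka1*, *Gm13889* and *Eno1b*. *Srxn1*, which repairs oxidised peroxiredoxins and holds a pair of AP-1 elements in the window shown above, was at 103 and 15.6 FPKM with LY and at 37.4 and 20.7 alone. *Elfn1*, a leucine-rich repeat protein, was at 6.06 and 0.694 FPKM with LY and at 4.64 and 1.95 alone. *Inka1* and *Timp1* lie in the low stretch, and *Eno1b* had almost no FPKM in either ligand-alone condition, and the part of this in their gains was not tested. By the same limits, the largest shifts toward PDGF were those of *Kcnj2*, *Rab30*, *Adamts6*, *Lockd*, *1190007I07Rik*, *Msx1os*, *H2bc18* and *H2bc8*. *Rab30*, a GTPase of the Golgi, was at 10.7 FPKM with PDGF + LY and 3.34 with FGF + LY against 12.6 and 8.73 alone. The ligand-alone levels of *H2bc18* were 0.170 (FGF) and 0.134 FPKM (PDGF), so its shift rests on values near 0. *Msx1os* overlaps *Msx1* on the other strand, and reads of the pair cannot be told apart unless strand was counted, which the sources do not state.

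Histone and zinc finger genes, looked at after their values were seen, were also counted. Of 31 replication-dependent histone genes, 17 were higher with PDGF + LY and 3 with FGF + LY. With LY at 1 hr the order was opposite, with 13 higher with FGF and 3 with PDGF. *H4c14* was at 5.05 (PDGF + LY) and 1.16 FPKM (FGF + LY) at 4 hr and at 5.57 and 13.1 at 1 hr, and *H2bc18* was at 22.8 and 7.40 at 4 hr. These transcripts lack the poly-A tail of other mRNAs, and 59.3% of the 31-base words of *H2bc18* and 56.3% of those of *H2bc8* also occur in other genes, so their values are uncertain. Of 303 genes with a Zfp symbol, 47 (15.5%) were higher with PDGF + LY and 8 (2.64%) with FGF + LY. With PD the same family gave 76 and 3 of 300, where 13.2% and 6.2% of all entries were counted. Alone it gave 9 and 5 of 297, where 6.58% and 4.37% of all entries were. The median level of the family in the higher LY condition was 4.84 FPKM. At 2 to 5 FPKM 19.4% of all entries were on the PDGF side and 9.46% on the FGF side, and at 5 to 20 FPKM 7.42% and 7.66%. The PDGF share of the family, 15.5%, lies between those of these levels, and its FGF share, 2.64%, lies below both. The family was not set against genes matched in level. Genes counted on the PDGF side were also shorter, with a median genomic span of 16.2 kb against 25.2 kb on the FGF side and 24.6 kb for the others.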

How the data were processed

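RNA-seq of MEPM cells covered 22 samples in 10 conditions. The authors deposited FPKM values from Cuffdiff, made from TopHat alignments to mm10 after base calling in CASAVA, as the submitters' processing notes state. Tool versions are not given in the sources used here. The deposited table gives 1 FPKM per entry and condition, pooled over replicates, without counts, so the depth and the precision of single values were not estimated. Another 3 columns, of conditions from another series, were not used. Symbols came from RefSeq (22749 of 23286 entries have 1).

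Ratios were taken from FPKM without a pseudocount or scaling, at a minimum of 1 FPKM in either condition and a size rule of 1.5-fold. Ratios beyond 5 on the log2 scale entered medians as 5. The 82 small RNAs were kept in the counts. Genes named were the 12 largest ratios each way with at least 5 FPKM, up to 4 members of each of 44 gene lists (604 of 611 genes had an entry), mesenchymal and other cell type markers, genes the paper names, the 8 largest gains and losses, and reversals. *Jund*, *Lhx8*, *Dlx1*, *Lhx6*, *Hey1*, *Ccna2*, *Tbp*, *Aldoa*, *Pkm* and *Ldha* were added after their values were seen. Members and lists were chosen with earlier results of these data known. *Xist* and *Ddx3y* were read as a check of the sex of the cells, with the values given in the opening. The study's lists were read from its supplement for membership only, with entries matched by their FPKM values. Shared 31-base words came from GENCODE transcripts, and genes with over 25% shared were taken as uncertain. Promoters of 160 of 222 named genes were in the RefSeq table. Some results are not reported here. The procedure was tested on simulated data. Alternatives were other size rules, filters, pseudocounts, rescaling, small RNAs left out and, added after seeing the data, the study's lists and the omission of distal chromosome 9 and chromosome X. Python 3.11.15, pandas 2.3.3, NumPy 2.4.6 and matplotlib 3.10.9 were used.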

Additional observations from a re-analysis of the deposited data

Results flagged for a closer look

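Apart from small RNAs, *Loxl1* and *Exosc7* were the genes of at least 5 FPKM that were 1.5-fold or more higher with PDGF alone and 1.5-fold or more higher with FGF under LY, and 0 such genes were reversed the other way. *Loxl1*, a lysyl oxidase-like enzyme of elastic fibres, had 78.4 (FGF) and 124 FPKM (PDGF) alone and 158 and 102 FPKM with LY, a log2 ratio of 0.63. *Exosc7*, a subunit of the RNA exosome, had 10.5 and 16.7 FPKM alone and 12.9 and 8.31 FPKM with LY, also a log2 ratio of 0.63. The difference between the conditions was not tested, since each holds 1 pooled value. Both genes lie in the part of chromosome 9 that was low as a block with FGF alone, whose part in these reversals was not tested.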

How the results depend on the processing

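Counts of genes higher with FGF + LY and with PDGF + LY were 1037 and 1102. They were 444 and 345 at 2-fold, 2164 and 2325 at a size rule lower than 1.5-fold and 1675 and 2105 without a filter. The PDGF count was 479 with at least 5 FPKM and 659 with a pseudocount of 1, so the order of the ligands in these counts depends on how weak genes are treated. Of the genes chosen alone, 389 of 507 (FGF, 76.7%) and 296 of 763 (PDGF, 38.8%) passed with LY. These counts were 128 of 171 and 43 of 123 at 2-fold. At a lower size rule they were 949 of 1317 and 1023 of 1958. Without a filter more genes were chosen, and the shares fell to 593 of 1323 (44.8%) for FGF and 685 of 2110 (32.5%) for PDGF. With at least 5 FPKM they were 273 of 341 (80.1%) and 118 of 427 (27.6%). With a pseudocount of 1 they were 306 of 372 (82.3%) and 134 of 444 (30.2%). The study's own lists gave 337 of 404 (83.4%) and 139 of 325 (42.8%). The omission of distal chromosome 9 and chromosome X, chosen after seeing the data, left 989 and 1020 genes with LY and 387 and 233 of those chosen alone, but took the PDGF share from 38.8% to 63.8%. Of 44 list medians, 13 were past the size rule, and 0 of these 13 and 0 of 221 named genes were reversed. The medians of 5 other lists, all closer to 0, changed sign. With at least 5 FPKM these were FGF ligands and receptors (-0.29 to 0.11), the Myc network (0.07 to -0.06), metalloproteinases (0.23 to -0.01) and cartilage genes (-0.07 to 0.03), and without a filter the reference genes (0.12 to -0.01). The medians of 3 lists moved by over 1.5-fold: AP-1 genes to 0.73 and EGF receptor ligands to 2.47 with a pseudocount of 1, and, without a filter, the latter to 2.62 and cytokines to 0.51. A pseudocount of 1 put 18 named genes under the size rule, rescaling 1 and a pseudocount of 0.1 none of them. No paired analysis was possible because the columns are pooled over replicates, and for the same reason no replicate could be left out. Low levels limit the PDGF side most, where the median level of called genes was 4.13 FPKM, and the depth behind single values is unknown.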

Other observations

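Further gene groups were compared by the same size rule, by which 8.95% of all entries were higher with FGF + LY and 9.51% with PDGF + LY. Of 12 YAP-TEAD targets, 4 were higher with FGF + LY and 0 with PDGF + LY, among them *Ccn2*, a matricellular growth factor, and *Axl*, a receptor tyrosine kinase, at 197 and 115 FPKM. Of 6 genes of hyaluronan synthesis and binding, 3 were higher with FGF + LY. *Has2*, a hyaluronan synthase, was at 16.8 and 8.25 FPKM and *Cd44*, a hyaluronan receptor, at 237 and 68.0. Of 17 semaphorins and receptors, 5 were higher with FGF + LY and 1 with PDGF + LY, and of 14 Eph receptors and ephrins 2 and 2. *Epha2* was at 83.0 and 29.4 FPKM and *Efnb2*, an ephrin, went the other way at 36.4 and 58.7. *Snai1*, a factor of mesenchymal transition, was at 17.3 and 9.58 FPKM and *Twist2* at 8.65 and 2.31.

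Other groups had members on both sides. For D cyclins and CDK inhibitors, the BCL2 family and ATF4 targets the counts were not far from the shares over all entries, 8.95% and 9.51%. Of 11 BMP ligands and receptors, 3 were higher with FGF + LY and 4 with PDGF + LY, and *Inhba*, an activin subunit, was at 323 and 103 FPKM. Of 12 circadian clock genes, 3 were higher in each direction, *Bhlhe40*, a clock repressor, being at 36.8 and 5.51 FPKM. Of 11 D cyclins and CDK inhibitors, 1 was higher with FGF + LY and 2 with PDGF + LY, and *Cdkn1b*, which encodes the CDK inhibitor p27, was at 15.5 and 29.1 FPKM. Of 12 BCL2 family genes, 2 were higher with FGF + LY and 1, *Bmf*, with PDGF + LY, and *Mcl1*, a survival factor, was at 115 and 74.7 FPKM. Of 19 ATF4 targets, 2 were higher with FGF + LY and 1, *Trib3*, with PDGF + LY, at 20.7 and 39.3 FPKM. Of 10 forkhead factors, 2 were higher with FGF + LY and 3 with PDGF + LY, and of 8 matrix metalloproteinases and inhibitors 3 and 2.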
